A study of Homo sapiens with 12 samples.

Results

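Oxamate-resistant MIAPaCa2 cells were compared with their parental cells in the absence of drug, across every gene expressed in these libraries. MIAPaCa2 is a line from a human pancreatic ductal adenocarcinoma. The resistant cells had been obtained by growing parental cells in 10 mM sodium oxamate for 4 weeks until colonies formed, and were kept as polyclonal populations. The comparison uses 6 of the 12 RNA-seq libraries, 3 labelled parental and untreated and 3 labelled resistant and untreated, and 14582 of the 26475 gene symbols in the count table. The other 6 libraries, from the same lines with oxamate, serve here to look again at what the untreated libraries showed. All cells were grown in the same serum-containing DMEM medium, and the study's text calls the untreated cells vehicle-treated. How long the resistant cells had been without oxamate before harvest is not given in the sources used here. The labels do not say whether the replicates were separate cultures. All 3 resistant libraries come from what is described as one resistant line, so the p-values measure the spread between these samples and not that between independent selections.

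Lactate dehydrogenase A (LDHA) converts pyruvate to lactate and regenerates the NAD+ that glycolysis consumes. Oxamate resembles pyruvate and competes with it for the enzyme. Cells that keep growing under such an inhibitor can differ from their parents in the enzymes and transporters of lactate, and also in pathways far from glycolysis, such as survival signalling, chaperones, cell adhesion and the cell cycle. The comparison without drug gives the state of the selected cells in libraries labelled untreated. As the time without oxamate is not given, whether that state lasts without the inhibitor cannot be told.

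The untreated libraries held 52774422 to 114222169 counts, more in the parental ones (66383814 to 114222169) than in the resistant ones (52774422 to 55239600), and levels are given below in CPM, counts scaled to a common library total after TMM adjustment. The first principal component, with 83.0% of the variance, separated the lines. The second, with 5.80%, set the third resistant library apart from the other two. Keratins KRT8, KRT18 and KRT19 and vimentin, which mark a carcinoma line of this kind, were at 316 to 9498 CPM in all 6 libraries, whereas EPCAM stayed under 0.2 CPM. Of 38 markers of immune cells, fibroblasts, endothelium and pancreatic acinar or islet cells, 30 stayed under 1 CPM in all 6 libraries and 11 had no count in any. The summed level of the 38 was 942 to 963 CPM in the parental and 826 to 864 CPM in resistant libraries, most of it from the collagen gene COL1A2, and the leucocyte gene PTPRC did not pass 0.2 CPM. Among the immune markers 3 were above 1 CPM. CD68 was at 164, 161 and 156 CPM in the parental and 60.1, 63.0 and 59.3 CPM in resistant libraries, LYZ at 25.2 to 25.7 and 17.3 to 18.2 CPM, and CD14 at 2.13 to 2.75 CPM over the 6.

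In the resistant cells 2474 genes were upregulated, which is 17.0% of those tested, and 888 were downregulated, which is 6.09% (edgeR quasi-likelihood test, Benjamini-Hochberg adjusted p under 0.05 and a fold change over 1.5). Scaling by library totals alone, which moved the median of all genes by 0.22, turned these counts into 3789 and 373. The large changes were mostly gains. With a mean level of 1 CPM or more, 606 genes rose by more than 2-fold and 140 fell by more than 2-fold. At 4-fold the counts were 117 and 6, and at 16-fold they were 19 and 0. The groups did not overlap, with every resistant library above or below every parental one, for 11321 genes or 77.6%, so separation alone says little about a single gene. The gain was carried by weakly expressed genes. Of the 9599 genes averaging 8 CPM or more, 593 rose and 594 fell (1287 and 203 with scaling by totals alone), and their median log2 fold change was -0.09. Among the 4983 genes under 8 CPM, 1881 rose and 294 fell. Of 839 long noncoding RNAs 33.3% were upregulated and 5.01% downregulated, and of 13032 protein-coding genes 15.2% and 6.16%, beside 37.7% upregulated among all genes under 8 CPM. The difference was not tested. Of 470 zinc finger genes with a ZNF symbol, most of them transcriptional regulators, 167 rose and 9 fell.

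**Figure D1:**
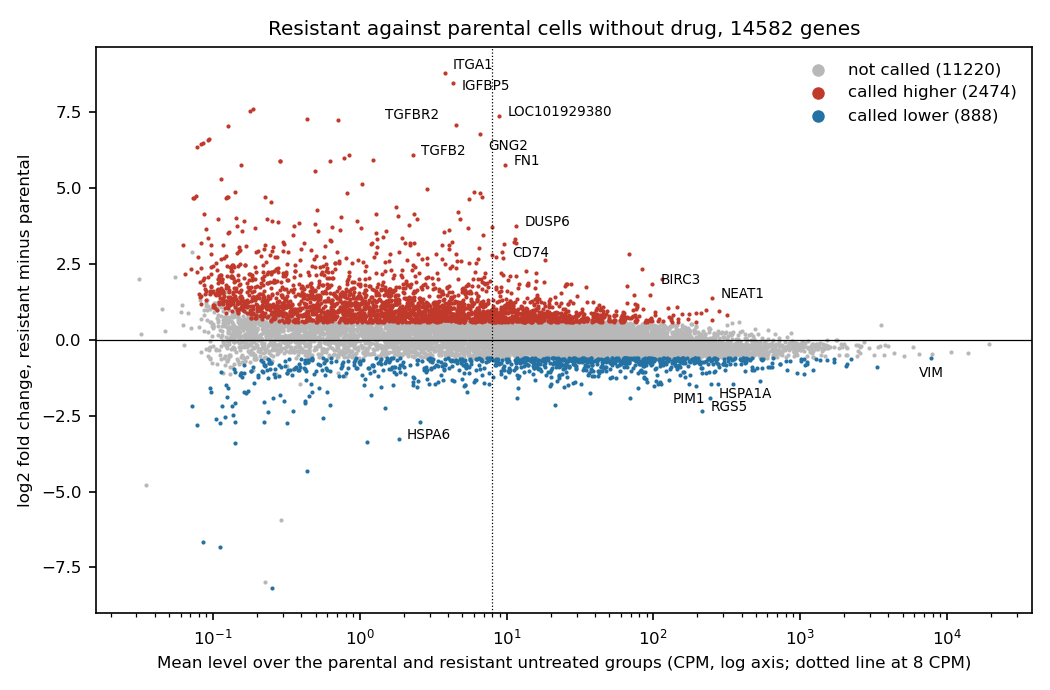
Change of each of 14582 genes between resistant and parental untreated cells (log2 fold change, vertical axis) against its mean level over both groups (CPM, log axis), with called genes in red (2474 higher) and blue (888 lower). The large gains lie at the left, at low levels, and the losses are mostly smaller.

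The oxamate-treated libraries share no sample with the untreated ones, so the same contrast could be taken a second time. There, 22.7% of all genes were higher and 11.4% lower in the resistant cells. Of the 2474 genes upregulated without drug, 2043 (82.6%) were upregulated with it as well, and 4 were downregulated. Of the 888 downregulated, 724 (81.5%) were downregulated again, and 1 went up. Repeat counts of single lists below stand beside these shares. Some lists repeated less often in their gains: Notch genes (4 of 6), integrins and laminins (5 of 8) and ABC transporters (2 of 4). The same held for growth factors and receptors (4 of 6) and replication-dependent histones (4 of 6).

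LDHA itself, the target of the drug, was close in the lines. Its level was 1075, 1059 and 1086 CPM in the parental and 966, 970 and 944 CPM in the resistant libraries, a log2 fold change of -0.16 ± 0.031 (SE, n = 3 each, adjusted p = 0.000211), and the sign changed to 0.06 when libraries were scaled by their total alone. LDHB, the other subunit of the enzyme in most tissues, had 1 count in 1 parental library and 0 in the other 5. Among the lactate exporters SLC16A1 was lower. This gene, which encodes the monocarboxylate transporter MCT1, was at 342, 348 and 361 CPM in the parental and 171, 169 and 169 CPM in resistant libraries, a 2.07-fold loss (adjusted p = 2.02e-14). SLC16A3, which encodes the MCT4 transporter, went from 616 to 434 CPM and stayed within a 1.5-fold change. Of the 20 tested genes of lactate and pyruvate handling, 3 rose, 2 fell and the median log2 fold change was -0.21, beside 0.03 over all genes.

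The other gene of that list to fall was MPC1, a subunit of the carrier that brings pyruvate into mitochondria, from 8.30 to 4.73 CPM. Those that rose were PDP1, the phosphatase that activates pyruvate dehydrogenase, from 12.8 to 22.0 CPM, PDK4, a kinase that inactivates the same enzyme, from 5.12 to 9.39 CPM, and LDHC, the testis form of lactate dehydrogenase, from 0.733 to 1.25 CPM. None of these 3 gains was called again in the oxamate libraries, whereas both losses were. The remaining members stayed within a 1.5-fold change, among them PDHA1 (272 to 228 CPM), PDHB (64.3 to 52.7 CPM), PDK1 (17.7 to 19.6 CPM), BSG (1618 to 1155 CPM) and MPC2 (73.4 to 51.6 CPM). With the fold limit not counted, 5 of the 20 were above and 14 below 0 at an adjusted p under 0.05.

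A gene was taken as switched on when it was under 0.2 CPM in all 3 parental libraries and over 2 CPM in all 3 resistant libraries, and as switched off in the opposite case. By that rule 9 genes were switched on and none of the 888 genes that edgeR called lower was switched off. Limits of 0.1 and 1 CPM gave 11 genes on and 0 off, and limits of 0.5 and 5 CPM gave 9 on and 0 off. Since the rule used these levels, they are given as a description. All 9 were called higher in the oxamate libraries too. In bulk libraries, a gene used by more cells of the population and a gene used more strongly in each cell cannot be told apart.

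Several of the 9 belong to transforming growth factor beta signalling and cell adhesion. TGFBR2, the receptor that binds the ligand, was at 0.0471, 0.0406 and 0.129 CPM in the parental and 9.25, 8.45 and 9.11 CPM in the resistant libraries. TGFB2, one of the ligands, was at 0.0566, 0.0609 and 0.0804 CPM and then at 4.69, 4.48 and 4.40 CPM. In read counts TGFBR2 had 17 in the parental and 1565 in the resistant group. That is a depth-adjusted ratio of 140 (exact 95% interval for counting error 87.2 to 241). TGFB2 had 17 and 793, a ratio of 71.0 (44.1 to 123). Intervals here and below use the counts that chose the genes and do not allow for that choice. In the oxamate libraries, which the choice did not use, the ratios were 129 (75.2 to 243) for TGFBR2 and 61.0 (33.8 to 123) for TGFB2. ITGA1, the collagen-binding integrin alpha 1 chain, had 4 counts in the parental group and stood at 7.84, 7.73 and 7.14 CPM in the resistant libraries, with a ratio of 505 (197 to 1855). IGFBP5, a secreted protein that binds insulin-like growth factors, had 6 parental counts and stood at 7.97, 9.52 and 8.25 CPM, with a ratio of 382 (175 to 1043). EMB, or embigin, a partner protein of monocarboxylate transporters, was at 0.198, 0.142 and 0.129 CPM in the parental and 3.19, 3.38 and 3.49 CPM in resistant libraries.

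The other 4 switched genes were a long noncoding RNA and 3 genes of signalling. LOC101929380 (chr5:87120148-87248021 on GRCh38) was at 0.104, 0.0913 and 0.129 CPM in the parental and 17.8, 18.2 and 17.2 CPM in resistant libraries. GNG2, a G protein gamma subunit, had 31 parental and 2296 resistant counts, a ratio of 113 (79.2 to 166). VAV1, an exchange factor for small GTPases best known from blood cells, had 10 and 423 counts, a ratio of 64.4 (34.7 to 135). CACNA2D1, an accessory subunit of calcium channels, reached 2.44, 2.37 and 2.48 CPM from 0.104, 0.152 and 0.161 CPM. PTPRC, the general marker of blood cells, was at 0.0161 to 0.0504 CPM in the 6 untreated libraries, while the macrophage markers CD68, LYZ and CD14 were detected in both lines at the levels given above.

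**Figure D2:**
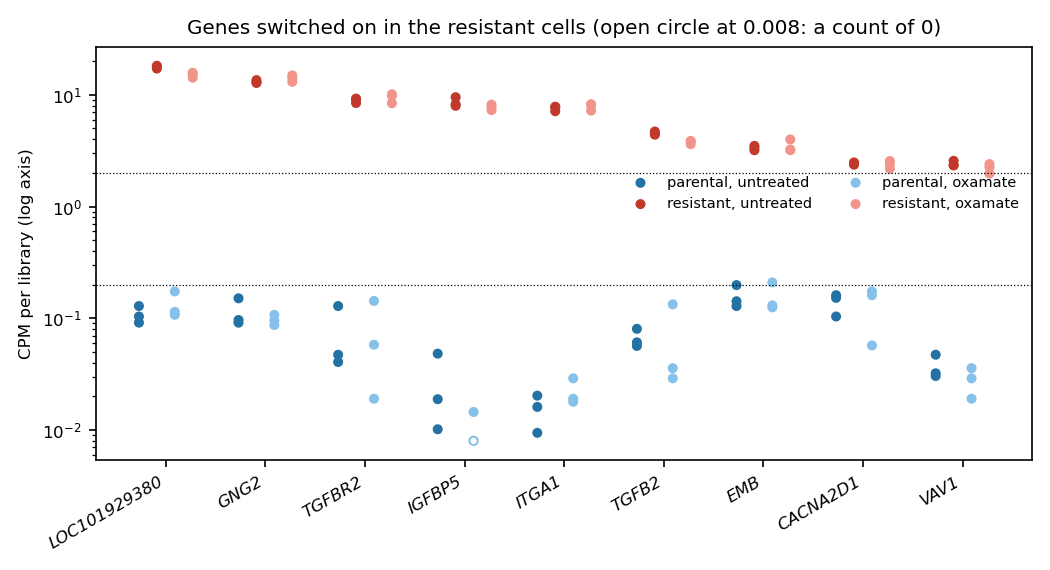
CPM in each of the 12 libraries (log axis) of the 9 genes switched on, by line and treatment, with dotted lines at the limits of 0.2 and 2 CPM and counts of 0 as open circles. In each gene the resistant libraries, with or without oxamate, lie more than 10-fold above the parental ones.

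Several genes lay just outside the limits. FN1, or fibronectin, was at 0.377, 0.365 and 0.273 CPM in the parental and 18.3, 18.3 and 21.1 CPM in resistant libraries. KRT81, a hair keratin whose reads may be shared with the near-identical KRT86, went from 0.258 to 4.41 CPM. SERPINB2, an inhibitor of urokinase, went from 0.0541 to 1.58 CPM. On the other side, no gene reached the limits. Among called losses with every parental library over 1 CPM, the largest by fold were LOC100129617 (2.06 to 0.194 CPM), HSPA6 (3.34 to 0.347 CPM), INHBE (4.43 to 0.684 CPM), RGS5 (359 to 70.5 CPM) and CA14 (2.43 to 0.514 CPM). Of these, RGS5 stayed far above the limit of 0.2 CPM.

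The genes next to the switched genes were looked at after these values were seen. The nearest tested gene on either side of each of the 9 gave 17 neighbours, of which 10 were called higher and none lower, beside 17.0% higher over all genes. Weakly expressed neighbours made up much of this, with 7 of 8 called higher under 8 CPM, where 37.7% of all genes were. LOC101929380 lies 19.9 kb from RASA1, a GTPase-activating protein that turns off RAS. RASA1 was at 38.4, 39.9 and 39.8 CPM in the parental and 109, 109 and 110 CPM in resistant libraries, a 2.78-fold gain (adjusted p = 2.83e-16). ITGA1 lies 30.1 kb from ITGA2, which rose from 0.0875 to 0.446 CPM, and CACNA2D1 lies 310.1 kb from PCLO, which rose from 0.230 to 2.16 CPM. IGFBP2, 7.7 kb from IGFBP5, had means of 8.17 and 7.85 CPM.

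Of the genes averaging 8 CPM or more, the 8 largest gains were LOC101929380, FN1 and 6 others led by DUSP6, a phosphatase of ERK that is itself induced by ERK signalling. It was at 1.67, 1.33 and 1.85 CPM in the parental and 21.6, 20.8 and 22.9 CPM in resistant libraries, a 13.6-fold difference (log2 3.77 ± 0.080 SE, adjusted p = 2.06e-15). The other 5 were TPD52L1 (2.08 to 20.7 CPM), KIAA1549L (2.18 to 20.5 CPM), PEG10 (2.26 to 20.9 CPM), CD74 (1.94 to 17.2 CPM) and HIVEP2 (2.20 to 16.4 CPM), with log2 fold changes of 3.31 to 2.90. In each of these genes every resistant library was above every parental one. They were picked for their size, and 77.6% of all genes did not overlap.

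The 8 largest losses were smaller. RGS5, a regulator that shortens G protein signalling, was at 341, 359 and 375 CPM in the parental and 71.9, 70.7 and 68.8 CPM in resistant libraries, a 5.09-fold loss (log2 -2.35 ± 0.039 SE, adjusted p = 1.90e-16). The others were RSRP1 (35.1 to 7.92 CPM), HSPA1B (110 to 29 CPM), SSTR5 (18.6 to 4.94 CPM), HSPA1A (387 to 102 CPM), ENC1 (57.4 to 16.9 CPM), ZNF438 (18 to 6.00 CPM) and PORCN (117 to 39.3 CPM). SSTR5 is a somatostatin receptor and PORCN adds the lipid that WNT proteins need for secretion. RSEM divides reads between the near-identical HSPA1A and HSPA1B, so their split is uncertain.

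By absolute difference in CPM the gains were led by NEAT1, SLC7A5, MALAT1, AGRN and IGF2, and the losses by VIM, HSP90AA1, HMGA1, TMSB10 and ENO1. The places of NEAT1 and MALAT1 in this order depend on the third resistant library. It was well above the others for NEAT1 (504 against 284 and 303 CPM) and MALAT1 (597 against 244 and 273 CPM). IGF2, an insulin-like growth factor, was at 46.1, 48.1 and 42.1 CPM in the parental and 186, 186 and 176 CPM in resistant libraries, a 4.01-fold gain (adjusted p = 1.36e-14). AGRN, or agrin, a heparan sulphate proteoglycan of basement membranes, rose 1.96-fold from 154 to 302 CPM. VIM, the intermediate filament vimentin, fell from 9445 to 6282 CPM, HMGA1, a chromatin architectural protein, from 2631 to 1459 CPM, and TMSB10, which binds actin monomers, from 2636 to 1533 CPM. With scaling by totals alone VIM, TMSB10 and ENO1 were no longer past a 1.5-fold change (log2 -0.37, -0.56 and -0.42).

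Genes of NF-kappaB signalling rose together. NF-kappaB dimers are held in the cytoplasm by inhibitor proteins or as unprocessed precursors, and once free they induce survival factors, chemokines and their own inhibitors. Of 21 tested members of a list of subunits and targets, 11 rose and none fell, against 17.0% and 6.09% of all genes, and the median log2 fold change was 0.68 (0.66 to 0.70 when any 1 library was left out). In the oxamate libraries 10 of the 11 were called higher again, beside 82.6% of all genes upregulated without drug. BIRC3, an inhibitor of apoptosis that also restrains the noncanonical branch, was at 40.7, 43.3 and 45.9 CPM in the parental and 160, 150 and 153 CPM in resistant libraries. That is a 3.57-fold gain (log2 1.84 ± 0.042 SE, adjusted p = 5.11e-15).

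TNFAIP3, a ubiquitin-editing enzyme that ends the signal, was at 11.7, 12.2 and 12.0 CPM in the parental and 42.5, 42.3 and 43.1 CPM in resistant libraries. The subunits differed among themselves. RELB rose from 20.8 to 49.5 CPM, NFKB2 from 114.2 to 183 CPM and REL from 14.1 to 24.1 CPM, while RELA, at 81.2 and 91.8 CPM, did not pass a 1.5-fold change. NFKB2 was the one member not called again with oxamate. The chemokines CXCL2 (5.29 to 19.1 CPM) and CXCL3 (3.45 to 9.38 CPM) rose, as did TNFAIP2 (147 to 273 CPM) and NFKBIZ (18 to 34.5 CPM). IL1B and ICAM1 rose as well but stayed under 0.4 CPM in the mean of either line.

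The 250 bases before the start of BIRC3 and CXCL2 are shown because both genes rose and both hold the NF-kappaB consensus motif, in capitals, on either strand. In CXCL2 the run covers a pair of overlapping matches. Sequences are from RefSeq (GRCh38.p14) and read 5′ to 3′ along the gene.
BIRC3, chr11:102317234-102317483, plus strand: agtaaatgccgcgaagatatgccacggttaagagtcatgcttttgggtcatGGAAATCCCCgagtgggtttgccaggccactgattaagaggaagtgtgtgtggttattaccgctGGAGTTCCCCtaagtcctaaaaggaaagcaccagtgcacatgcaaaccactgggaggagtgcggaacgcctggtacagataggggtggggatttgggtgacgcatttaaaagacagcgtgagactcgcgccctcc
CXCL2, chr4:74099196-74099445, minus strand: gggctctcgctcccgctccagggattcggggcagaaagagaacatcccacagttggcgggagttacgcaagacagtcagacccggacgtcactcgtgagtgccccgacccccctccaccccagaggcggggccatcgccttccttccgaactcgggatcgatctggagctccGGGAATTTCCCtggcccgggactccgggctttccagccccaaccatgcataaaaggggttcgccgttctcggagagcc
The consensus was found in 9 of the 18 list members that have a promoter sequence, 6 of which rose, and in 6.12% of 11304 promoters of tested genes. The members were chosen as known targets, so a higher share than in all promoters is part of how the list was made.

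The class II branch of antigen presentation was also higher. CIITA is the coactivator that turns on MHC class II genes, and CD74 is the invariant chain that escorts the class II dimers. CIITA was at 0.396, 0.406 and 0.370 CPM in the parental and 2.30, 2.82 and 3.27 CPM in resistant libraries (7.10-fold, adjusted p = 3.40e-10). CD74 was at 2.07, 1.77 and 1.99 CPM in the parental and 17.7, 17.4 and 16.6 CPM in resistant libraries (8.87-fold, adjusted p = 1.42e-15). HLA-DRA went from 0.446 to 3.95 CPM, HLA-DRB1 from 1.11 to 7.94 CPM and HLA-DPA1 from 0.846 to 4.91 CPM. The lines did not overlap in these, as in 77.6% of all genes. The class I genes HLA-B, HLA-C and B2M, and the class II genes HLA-DMA and HLA-DMB, did not pass a 1.5-fold change, and PSMB8, an immunoproteasome subunit, rose from 8.64 to 15.7 CPM. In the whole list 6 of 19 rose and none fell, with a median of 0.40. Over all genes 17.0% rose and 6.09% fell, and 37.7% rose among those under 8 CPM. With the fold limit not counted, 13 members were above and 4 below 0 at an adjusted p under 0.05. All 6 were called again with oxamate, where the median was 0.16 and 1 member was lower. RSEM divides reads among similar HLA genes, so values of single HLA genes are uncertain.

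**Figure D3:**
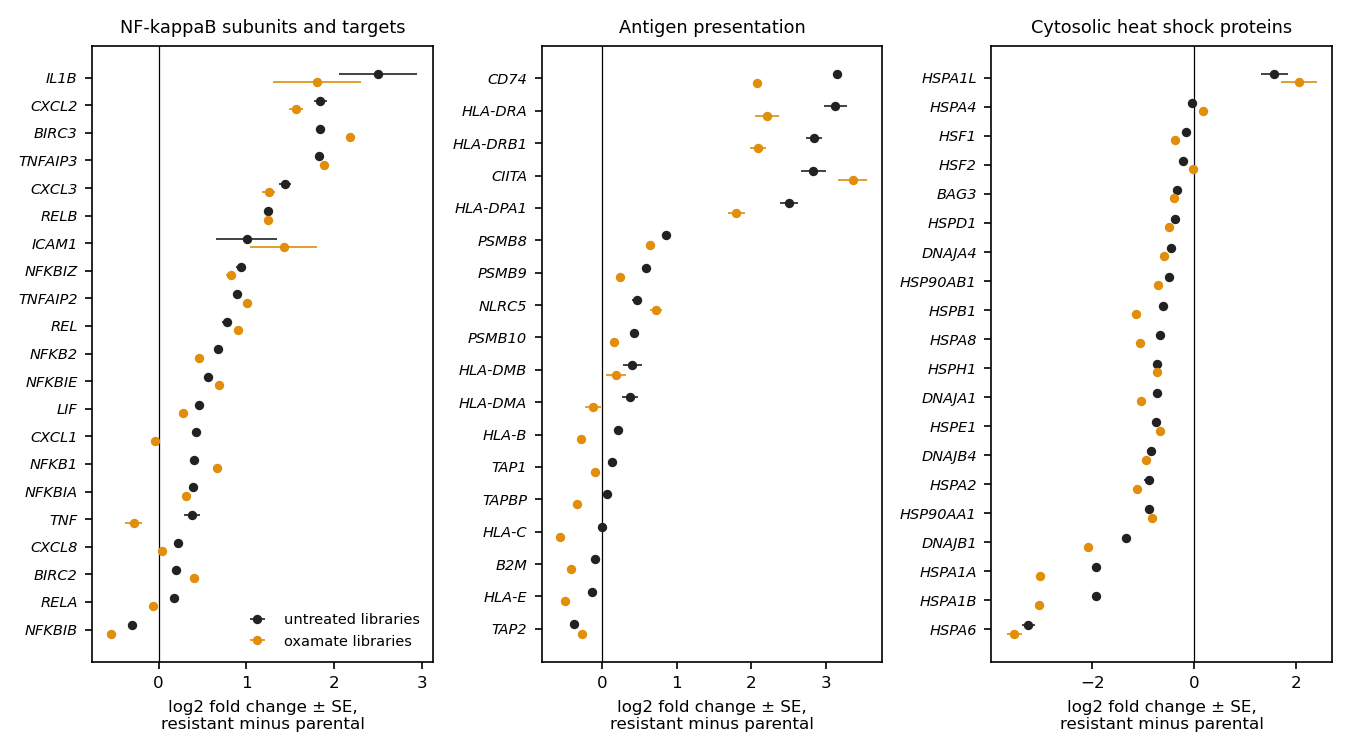
log2 fold change ± SE of the tested members of 3 lists (a member not reported here is left out) in the untreated libraries (black) and the oxamate libraries (orange), resistant minus parental. Among NF-kappaB genes and MHC class II genes the gains, and among heat shock genes the losses, appear in both pairs of groups.

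Heat shock genes fell. These chaperones fold cytosolic proteins, and many are induced by HSF1 through heat shock elements in their promoters. Of 20 tested members 12 fell and 1 rose, against 6.09% and 17.0% of all genes, with a median log2 fold change of -0.70 (-0.71 to -0.68 with any 1 library left out). All 12 were called lower again in the oxamate libraries, beside 81.5% of all genes downregulated without drug. With scaling by totals alone, 7 were lower. HSPA6, a stress-inducible member, was at 3.41, 3.21 and 3.39 CPM in the parental and 0.332, 0.437 and 0.274 CPM in resistant libraries, a 9.54-fold loss (adjusted p = 3.78e-12). HSPA1A was at 404, 382 and 374 CPM in the parental and 103, 103 and 101 CPM in resistant libraries, a 3.78-fold loss (adjusted p = 2.83e-16). DNAJB1, the co-chaperone of HSPA1A, was at 789, 762 and 748 CPM and then at 302, 304 and 301 CPM, a 2.53-fold loss.

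Other members fell less. HSPA8 went from 1873 to 1177 CPM, HSP90AA1 from 4328 to 2341 CPM and HSPB1 from 1563 to 1021 CPM. HSF1 itself had means of 166 and 150 CPM, within a 1.5-fold change. The 1 member that rose was HSPA1L, from 0.275 to 0.825 CPM, a gene that lies beside HSPA1A and is used mainly in testis.

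The promoters of HSPA1A and HSPA6 are shown because both genes fell and both hold heat shock elements (GAANNTTC or TTCNNGAA, the same letters on both strands), in capitals. In HSPA6 the second run of capitals holds overlapping matches.
HSPA1A, chr6:31815293-31815542, plus strand: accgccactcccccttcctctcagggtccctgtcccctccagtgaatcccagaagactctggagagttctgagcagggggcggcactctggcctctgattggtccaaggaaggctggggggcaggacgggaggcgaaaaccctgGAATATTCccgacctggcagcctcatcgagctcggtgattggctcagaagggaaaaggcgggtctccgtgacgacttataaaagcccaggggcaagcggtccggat
HSPA6, chr1:161524290-161524539, plus strand: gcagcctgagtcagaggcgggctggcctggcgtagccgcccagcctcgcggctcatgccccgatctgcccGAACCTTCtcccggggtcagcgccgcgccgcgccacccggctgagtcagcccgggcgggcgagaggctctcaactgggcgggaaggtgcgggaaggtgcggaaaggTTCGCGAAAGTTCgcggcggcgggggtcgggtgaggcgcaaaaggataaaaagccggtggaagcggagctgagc
Such an element was found in 7 of 19 list members with a promoter sequence, of which 6 fell and 1 rose, and in 8.59% of all 11304 promoters. The list was made by known function, so these shares are a description. Whether the element went with the losses was not tested.

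Chaperones of the endoplasmic reticulum were lower in part. Of 20 tested members of this list, which covers the unfolded protein response, 6 fell and 1 rose, with a median of -0.50. Upper-quartile factors left 4 of them lower and totals alone 3. HSPA5, the main chaperone of that compartment, was at 1647, 1625 and 1642 CPM in the parental and 822, 816 and 848 CPM in resistant libraries, a 1.98-fold loss (adjusted p = 2.89e-15). SDF2L1 fell from 31.8 to 12.5 CPM, DNAJB9 from 49.5 to 22.1 CPM and CALR, or calreticulin, from 2069 to 1334 CPM. EDEM1, which sends misfolded glycoproteins to degradation, rose from 21.4 to 36.9 CPM. The promoter of HSPA5 is given for its ER stress element, in capitals, which is CCAAT, any 9 bases and CCACG.
HSPA5, chr9:125241344-125241593, minus strand: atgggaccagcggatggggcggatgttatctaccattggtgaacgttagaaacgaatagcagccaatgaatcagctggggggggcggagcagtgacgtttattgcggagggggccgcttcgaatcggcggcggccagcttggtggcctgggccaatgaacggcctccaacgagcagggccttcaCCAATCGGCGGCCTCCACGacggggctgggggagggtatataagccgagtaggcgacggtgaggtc
The element was present in 6 of 19 members with a promoter sequence, of which 2 fell, and in 0.124% of all promoters. CCAAT alone, on either strand and overlapping it, was in 17 of the 19 and in 34.9% of all. This list too was made by known function, and a link of either motif to the losses was not tested.

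Cholesterol synthesis and LDL uptake formed another lowered group, with 10 of 22 members down (6 with upper-quartile factors, 5 with totals alone), none up and a median of -0.58. INSIG1, which holds the SREBP complex in the endoplasmic reticulum and is an SREBP target, was at 160, 165 and 171 CPM in the parental and 61.6, 60.1 and 60.01 CPM in resistant libraries, a 2.73-fold loss (adjusted p = 2.70e-15). MSMO1 fell from 53.3 to 23.4 CPM and IDI1 from 39.3 to 20.2 CPM. A sterol element spelled TCACNCCAC was in none of 16 members with a promoter sequence and in 0.849% of all promoters. Of these 10 genes, 9 were lower with oxamate as well.

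Of 22 genes of glucose transport and glycolysis 5 were lower and 1 higher, with a median of -0.48. The counts depended on the scaling, with 2 lower and 1 higher by upper-quartile factors and 1 lower and 2 higher by totals alone. ALDOC, an aldolase, was at 81.0, 77.4 and 78.8 CPM in the parental and 33.3, 33.7 and 31.8 CPM in resistant libraries, a 2.40-fold loss (adjusted p = 1.44e-14). SLC2A1, the glucose transporter GLUT1, fell from 170 to 100.2 CPM, PGAM1 from 673 to 428 CPM, PFKFB3 from 156 to 99.8 CPM and ENO1 from 2692 to 1725 CPM. ENO3, the muscle enolase, rose from 0.822 to 1.75 CPM. All 6 were called the same way with oxamate. HIF targets outside glycolysis had 7 members lower and 2 higher of 21 (4 and 4 by totals alone), with a median of -0.31, among them ANGPTL4 (182 to 72.5 CPM) and ADM (34.5 to 16.5 CPM), while STC1 rose from 46.8 to 76.1 CPM.

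Genes of oxidative metabolism were mostly lower, but by less than 1.5-fold. Of 69 nuclear-encoded respiratory chain subunits 4 fell and none rose, beside 6.09% and 17.0% of all genes. Their median was -0.35 and 1 member was above 0. The TCA cycle had 1 of 25 lower (IDH2 was the member called) and a median of -0.29, and the pentose phosphate pathway had none of 10 called in either direction by edgeR and a median of -0.27. Mitochondrial ribosomal proteins had 2 of 77 lower and a median of -0.25, and proteasome subunits 1 of 31 lower and a median of -0.28. These medians are close in size to the shift of 0.22 between scalings, and under scaling by totals alone they were -0.13, -0.08, -0.05, -0.03 and -0.06. With TMM and the fold limit not counted, nearly all members were below 0 at an adjusted p under 0.05. In the same order of lists these were 68 of 69, 23 of 25, 9 of 10, 60 of 77 and 30 of 31.

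DNA replication genes fell in part, with 14 of 44 lower, none higher and a median of -0.46, against 6 lower and 1 higher by totals alone. MCM7, a subunit of the replicative helicase, was at 426, 403 and 402 CPM in the parental and 208, 208 and 206 CPM in resistant libraries, a 1.98-fold loss (adjusted p = 2.57e-14). CDT1, which loads the helicase, fell from 199 to 118 CPM, ORC1 of the origin recognition complex from 23.7 to 12.7 CPM and PCNA, the polymerase clamp, from 68.1 to 42.6 CPM. With oxamate 12 of the 14 were called lower. The promoter of MCM7 holds an E2F motif (TTTCCCGC or TTTGGCGC on either strand), shown in capitals.
MCM7, chr7:100101398-100101647, minus strand: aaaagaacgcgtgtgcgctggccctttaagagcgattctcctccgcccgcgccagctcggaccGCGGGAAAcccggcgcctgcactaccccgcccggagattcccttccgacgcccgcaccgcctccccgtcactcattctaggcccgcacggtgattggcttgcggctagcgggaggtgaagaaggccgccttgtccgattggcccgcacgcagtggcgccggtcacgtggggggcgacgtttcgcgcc
The motif was in 11 of 38 members with a promoter sequence, 5 of which fell, and in 3.03% of all promoters. Again the list was made by known function, and a link of the motif to the losses was not tested.

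Of 30 mitosis genes 10 were lower and 1 higher, with a median of -0.45. That count changed to 4 lower by upper-quartile factors, 2 lower by totals alone and 7 lower with none higher when the trend on transcript length, described below, was removed. CDK1, the kinase that drives entry into mitosis, was at 111, 112 and 120 CPM in the parental and 65.5, 64.3 and 64.0 CPM in resistant libraries, a 1.77-fold loss (adjusted p = 2.24e-12). AURKB fell from 96.1 to 53.7 CPM, whereas CENPE, a long kinesin gene, rose from 33.7 to 51.2 CPM. With oxamate, 4 of these 10 losses were called again. Cyclins, kinases and inhibitors of the G1 phase were mixed, with 5 of 21 lower and 2 higher (2 and 3 by totals alone). CCND1, or cyclin D1, rose from 102 to 161 CPM, and CDKN1C, a kinase inhibitor, fell from 115 to 55.7 CPM.

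In the RAS and ERK feedback list, 6 of 26 members rose and 2 fell (10 and 1 by totals alone), with a median of 0.21. Over all genes 17.0% rose and 6.09% fell. The gains were in negative regulators. RASAL2, a GTPase-activating protein for RAS like RASA1, was at 7.51, 7.61 and 7.65 CPM in the parental and 28.8, 28.3 and 28.8 CPM in resistant libraries, a 3.77-fold gain (adjusted p = 1.93e-15). DUSP4, a phosphatase of ERK, rose from 1.31 to 4.42 CPM, SPRED1 from 13.6 to 20.7 CPM and SPRED3 from 7.29 to 11.8 CPM. DUSP7, another ERK phosphatase, fell from 142 to 78.4 CPM and ETV4, a transcription factor downstream of ERK, from 75.9 to 50.0 CPM. All 6 gains were called again with oxamate.

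Growth factors and receptors were mixed, with 6 of 27 higher and 2 lower, beside 17.0% and 6.09% of all genes. AREG, or amphiregulin, rose from 78.1 to 119 CPM and HBEGF fell from 26.6 to 12.7 CPM. Among short-lived transcripts 6 of 26 fell and 2 rose, whereas 2 fell and 4 rose by totals alone. PIM1, a survival kinase, was at 261, 257 and 256 CPM in the parental and 95.9, 94.5 and 93.4 CPM in resistant libraries, and KLF2, a transcription factor, fell from 215 to 104 CPM. EGR2 rose from 0.417 to 1.05 CPM.

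Epithelial and mesenchymal genes did not move as blocks. In the epithelial list 6 of 28 rose and 3 fell, beside 17.0% and 6.09% of all genes. The simple-epithelium keratins fell, with KRT8 at 1519, 1424 and 1431 CPM in the parental and 671, 675 and 683 CPM in resistant libraries (2.16-fold, adjusted p = 1.73e-14), while ELF3, an epithelial transcription factor, rose from 11.3 to 39.0 CPM. In the mesenchymal list 4 of 17 rose and 2 fell, the risers being FN1, TGFBR2, TGFB2 and TGFBI and the fallers VIM and SNAI1. SNAI1, the repressor Snail, was at 28.9, 30.1 and 29.3 CPM in the parental and 10.5, 10.4 and 9.84 CPM in resistant libraries (2.88-fold lower, adjusted p = 2.20e-14).

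Integrins and laminins had 8 of 25 higher and 3 lower, beside 17.0% higher over all genes and 37.7% under 8 CPM, with LAMB3, a laminin chain of epithelial basement membranes, from 1.74 to 11.1 CPM and ITGA5, the fibronectin receptor chain, from 75.7 to 47.1 CPM. Extracellular proteases and inhibitors had 9 of 24 higher and 4 lower. SERPINE2, which inhibits thrombin and urokinase, was at 4.93, 5.23 and 4.89 CPM in the parental and 31.7, 31.5 and 31.2 CPM in resistant libraries (6.25-fold, adjusted p = 1.76e-16). TIMP1, an inhibitor of metalloproteinases, fell from 834 to 451 CPM.

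Of 6 tested kallikrein-related peptidases, which are secreted serine proteases encoded side by side on chromosome 19, 4 rose and 1 fell. KLK6 was at 27.5, 26.8 and 28.7 CPM in the parental and 142, 143 and 135 CPM in resistant libraries. KLK7 rose from 3.47 to 11.5 CPM, KLK5 from 1.83 to 6.25 CPM and KLK10 from 0.930 to 3.02 CPM, while KLK13 fell from 0.221 to 0.0460 CPM. Collagens and their modifying enzymes had 3 of 29 higher and 5 lower, with COL3A1 from 31.7 to 14 CPM.

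Amino acid transporters had 6 of 21 higher and 1 lower, beside 17.0% and 6.09% of all genes. Their median of 0.35 ranged from 0.10 to 0.36 when any 1 library was left out. With oxamate 4 of the 6 gains were called again and the median was 0.04. SLC7A11, the cystine importer of system xc-, was at 1.89, 2.07 and 2.12 CPM in the parental and 13.3, 13.6 and 14.8 CPM in resistant libraries (6.90-fold, adjusted p = 6.32e-14). SLC7A5, an importer of large neutral amino acids, was at 232, 232 and 221 CPM and then at 409, 415 and 398 CPM. SLC7A8, at 0.231 CPM in parental cells, fell to 0.0518 CPM. The integrated stress response list had 4 of 21 higher and 4 lower, but 4 and 2 by upper-quartile factors or with the length trend removed, and 6 and 1 by totals alone. Its median was 0.17 in the untreated libraries and -0.36 in the oxamate libraries. CHAC1, which degrades glutathione, rose from 2.56 to 11.7 CPM and TRIB3, a pseudokinase, from 29.3 to 57.8 CPM, whereas DDIT3, the stress transcription factor CHOP, fell from 50.3 to 24.8 CPM. An ATF4 motif spelled TGATGCAA, searched on both strands, was in the promoter of CHAC1 alone among 18 members and in 0.327% of all promoters. The NRF2 and glutathione list had 2 of 21 higher and 4 lower, with AKR1C1 from 145 to 65.3 CPM.

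The counts of the next lists stand beside 17.0% higher and 6.09% lower over all genes. Interferon-stimulated genes went both ways, with 8 of 28 higher and 5 lower. GBP1, a guanylate-binding GTPase, rose from 0.461 to 4.24 CPM, and OASL fell from 29.3 to 10.7 CPM. In the Notch list 6 of 21 rose and 1 fell, led by the ligand JAG1, at 29.3, 29.8 and 30.5 CPM in the parental and 99, 101 and 106 CPM in resistant libraries (3.41-fold, adjusted p = 1.96e-15). Semaphorins, ephrins and their receptors had 8 of 46 higher and 3 lower, shares close to those of all genes. The SLIT receptor ROBO1 led their gains (1.16 to 12.7 CPM). WNT and YAP targets had 5 of 20 higher and 2 lower, with AMOTL2 from 12.3 to 26.7 CPM and DKK1 from 36.6 to 21 CPM. Pancreas and gut lineage factors had 6 of 15 higher and 1 lower, beside 37.7% higher among all genes under 8 CPM. All the risers but ONECUT2 (5.82 to 9.57 CPM) came from means under 2 CPM. Chromatin modifiers had 9 of 60 higher and 1 lower, and neither share was above that of all genes. The lower one was DNMT1, the maintenance DNA methyltransferase, from 277 to 167 CPM.

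The calls in the remaining lists stand beside 17.0% higher and 6.09% lower over all genes. ABC transporters had 4 of 16 higher and none lower, with the cholesterol exporter ABCA1 from 10.2 to 22.3 CPM, replication-dependent histones 6 of 18 higher and 1 lower, and metallothioneins and zinc transporters 3 of 9 lower. Serine and one-carbon enzymes had 3 of 16 higher and 1 lower, purine and pyrimidine synthesis 4 of 24 lower, and the BCL2 family 1 of 15 higher and 2 lower. Fatty acid oxidation (2 of 21), fatty acid synthesis (1 of 17), autophagy and lysosome (2 of 42) and aminoacyl-tRNA synthetases (1 of 20) had gains but no losses called by edgeR. These gains were below the share of all genes. The medians of the 4 lists were -0.05, -0.17, -0.15 and -0.07, and above 0 by totals alone. With the fold limit not counted, each had more members below than above 0 at an adjusted p under 0.05 (23 and 12 for autophagy and lysosome). Of the 45 pathway lists, 18 had a median above 0 and 27 below. The sign of 13 medians changed from below to above 0 when libraries were scaled by their totals alone, and lactate and pyruvate handling, the mesenchymal list, short-lived transcripts, G1 genes, WNT and YAP targets and the NRF2 list were among them. The medians of heat shock, endoplasmic reticulum, sterol, glycolysis, HIF, replication, mitosis and respiratory chain genes stayed below 0 under every scaling, and those of NF-kappaB, antigen presentation, kallikrein and RAS feedback genes above 0. In 18 cases a list had no call in one direction by edgeR, and in all 18 there was none at an unadjusted p under 0.05 with the same fold limit, by DESeq2 or by limma-voom.

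**Figure D4:**
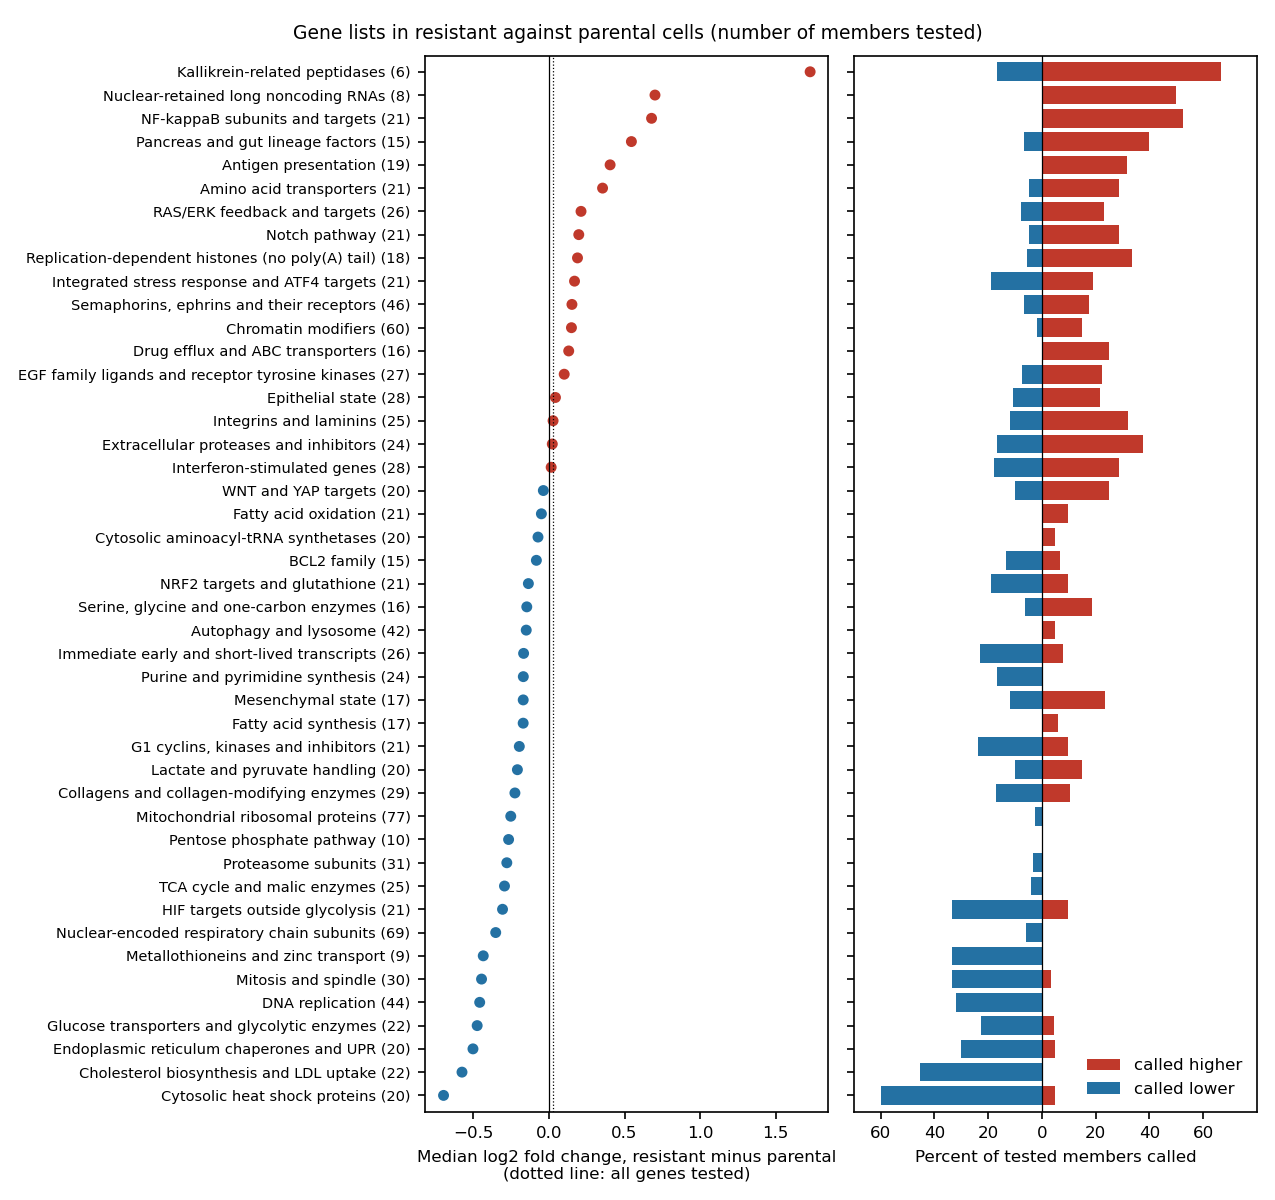
Median log2 fold change of the tested members of 45 gene lists (left, number tested in parentheses, dotted line at the median of all genes) and the percent of members called higher (red) or lower (blue) on the right. Kallikreins, nuclear-retained RNAs and NF-kappaB genes head the plot, and sterol synthesis and heat shock genes close it.

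The change also went with transcript length and level. Genes were split into 5 bins of equal size by transcript length, and the median log2 fold change ran from -0.15 in the shortest to 0.16 in the longest bin. Across 5 bins of level it ran from 0.54 in the lowest to -0.23 in the highest. Within each bin of level the longest transcripts were above the shortest, for instance -0.07 against -0.36 among the most abundant genes and 0.86 against 0.27 among the least abundant. Bins of GC content differed little, from 0.05 to -0.02. When the trend on length was removed from each library, an alternative chosen after seeing the data, 2272 genes rose and 753 fell, the median of the heat shock list was -0.58 and that of the NF-kappaB list 0.62. The part of length in the calls was not tested further.

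Nuclear-retained long noncoding RNAs, most of them long, had 4 of 8 members higher and none lower, and here the third resistant library stood out. NEAT1 was at 134, 155 and 128 CPM in the parental and 303, 284 and 504 CPM in resistant libraries. MALAT1 was at 183, 198 and 199 CPM in the parental and 273, 244 and 597 CPM in resistant libraries. Without the third resistant library the log2 fold change of NEAT1 was 1.08 and still called, and that of MALAT1 fell from 0.94 to 0.42 with an adjusted p of 0.114. The count of genes higher was 2321 without this library and that of genes lower 868.

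**Figure D5:**
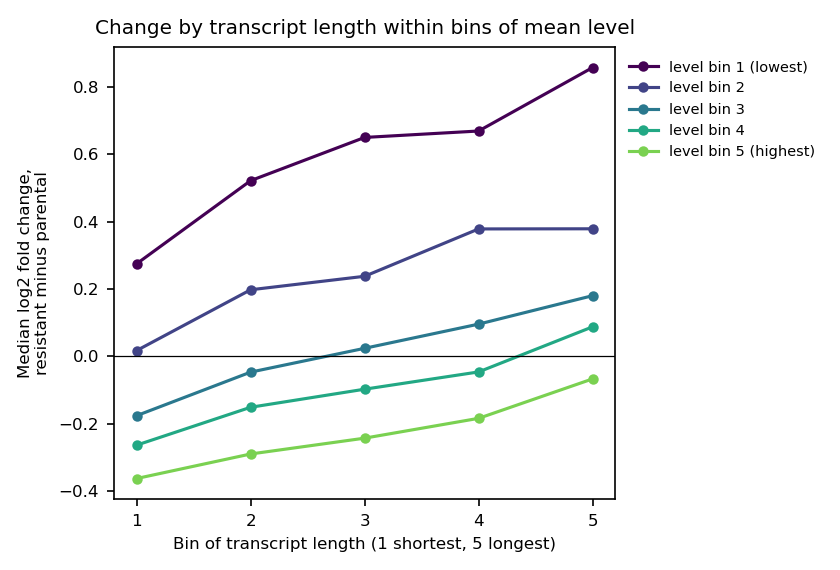
Median log2 fold change, resistant minus parental, in 5 bins of transcript length (horizontal axis), with a line for each of 5 bins of mean level. All 5 lines rise from the shortest to the longest transcripts, and lower levels lie higher throughout.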

How the data were processed

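RNA-seq libraries of parental and oxamate-resistant MIAPaCa2 cells, untreated or treated with oxamate (4 groups of 3), were analysed from a table of expected counts per gene symbol that the authors deposited. The submitters' processing notes name Bowtie2 2.1.0, RSEM 1.2.15 and the build hg38, and the study's methods also name STAR and featureCounts, so the exact route is not certain. RSEM shares reads among similar transcripts, and 11.6% of the values were not whole.

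Expected counts were rounded. Genes were kept with edgeR 4.0.16 filterByExpr (14582 of 26475), scaled by TMM and tested by its quasi-likelihood test in 1 fit over all 12 libraries, contrasting resistant untreated with parental untreated. Calls needed a fold change over 1.5 together with a p under 0.05 after Benjamini-Hochberg adjustment. DESeq2 1.42.0 and limma-voom (limma 3.58.1) were alternatives in R 4.3.3. Ratios of switched genes carry exact 95% intervals that, like all limits here, cover counting error only. Libraries of 52774422 counts or more put 3 counts at 0.0283 to 0.0524 CPM in the untreated libraries.

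Members of each list, the limits and the tests were chosen with earlier results of these data known. Named genes were the lactate and pyruvate list, the switched genes, the 8 largest changes each way at a mean of at least 8 CPM, the 5 largest differences in CPM each way, and in each list the called members with the smallest p and those needed to say which members moved. Genes beside switched genes were named after their values were seen. Gene positions and the 250 bases before each start came from RefSeq (GRCh38.p14), with 14270 tested genes matched, and transcript lengths from GENCODE for 93.6% of genes. Columns of comparisons made by the authors were not part of the table. Some genes are not reported here. The tests were checked on simulated data. Same-numbered replicates did not deviate together (correlations of 0.01, -0.07 and 0.02), and no pair of libraries agreed within sampling noise (chi-square per degree of freedom of 2.07 to 12.7).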

Additional observations from a re-analysis of the deposited data

Results flagged for a closer look

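For 7 of the genes with the largest changes, the difference between the lines was not the same with and without oxamate. The limits were a difference over 1.5-fold and an adjusted p under 0.05 (edgeR interaction test, 3 libraries in each of 4 groups). The genes looked at were LDHA, 8 of the switched genes and the 8 largest changes each way at 8 CPM or more. All but LDHA were picked for their change without drug, which is part of the difference tested. The test is therefore not independent of the choice. How many of all genes passed was not counted. The log2 fold change of DUSP6 between resistant and parental cells was larger by 1.03 with oxamate (3.77 without, 4.80 with, adjusted p = 5.18e-05). That of CD74 was -1.07 apart, a smaller gain with the drug (3.15 and 2.08, adjusted p = 3.17e-07). HSPA1A and HSPA1B, which share reads, both differed by -1.11, a larger loss with the drug (-1.92 and -3.03 for HSPA1A, adjusted p = 1.81e-10). RSRP1 differed by -0.74 (-2.15 and -2.89, adjusted p = 0.000182) and SSTR5 by -0.70 (-1.92 and -2.62, adjusted p = 2.12e-05). ENC1 differed by 0.86, a smaller loss with the drug (-1.76 and -0.91, adjusted p = 1.01e-08). Groups of 3 are too small for a test of outlying samples.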

How the results depend on the processing

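Against 2474 genes higher and 888 lower, 2 alternatives moved the counts by more than 1.5 times. Scaling by library totals alone gave 3789 higher and 373 lower, and testing against a 1.5-fold change gave 1477 and 522. The other counts, from RLE or upper-quartile factors, no filter or a mean count of at least 25, DESeq2, limma-voom, only the 6 untreated samples, unadjusted p, thinned libraries and the length trend removed, lay within 1.5 times. Totals alone also raised the members called higher to 17 for NF-kappaB (from 11), 11 for antigen presentation (from 6), 9 for amino acid transport and 9 for Notch (from 6 each), 13 for semaphorins and ephrins (from 8) and 17 for chromatin modifiers (from 9). Leaving out 1 library gave 2321 to 2537 higher and 857 to 914 lower. A replicate block gave 2476 and 891, and as the numbers do not pair the samples by the labels or by their deviations, it has no further reading.

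LDHA reversed to 0.058 by library totals alone, as did DLAT (0.017), DLD (0.0047), PDK2 (0.015) and PC (0.12), and PDK1 reversed to -0.040 with the length trend removed. The cause was not tested. The 9 genes switched on became 8 to 11 over the alternatives, with 8 when libraries were thinned to the smallest total. All 9 were called in the oxamate libraries under each alternative run there. Of 2049 alternative values for 121 named genes, 2032 kept their direction and their side of an adjusted p of 0.05, with the fold limit not counted. With the fold limit counted, 22 of the 107 called genes lost the call in at least 1 of the alternatives, or 48 of 1811 values, and 0 were called the other way by edgeR or the other tools. Totals alone ended 13 calls (VIM, TMSB10, ENO1, IDH2, TYMS, PPP1R15A, ITGA5, DKK1, HES6, KLF5, DNMT1, MRPS30 and PSMB3), removal of the length trend 12 and upper-quartile factors 6. Leaving out 1 library ended 8. For VIM, CPT2, CENPE, BMF, KLF5 and ATG2B the fold then fell just under 1.5 (log2 of 0.55 to 0.58 in size) at an adjusted p below 0.05, and MALAT1 and VWF each lost their call when 1 library was left out (MALAT1 without the third resistant library, adjusted p = 0.114, and VWF without the first parental or the first resistant library, adjusted p = 0.0871 and 0.0600). With 3 replicates of one selected line, variation between selections is not covered.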

Other observations

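Runs of 20 neighbouring genes were scanned along the chromosomes with a median taken over each run. Over 9107 runs of genes the median was -0.09, with the 1st percentile at -0.35 and the 99th at 0.20. The lowest run lay on chromosome 10, from PFKP to CDC123 (chr10:3067548-12250589), with a median log2 fold change of -0.44, 18 of 20 genes below 0 and 4 called lower. In the oxamate libraries, which share no sample with the untreated ones, its median was -0.39. The highest run lay on chromosome 18, from MIB1 to ZNF271P (chr18:21704916-35310766), at 0.41, and at 0.45 with oxamate. The runs were picked for their values, so these are descriptions.

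A stretch of chromosome 5 held the switched genes EMB and ITGA1, and was singled out after its values were seen. From EMB to ITGA2 (chr5:50396192 to 53094779) 5 genes were tested, and 4 of them, EMB, PARP8, ITGA1 and ITGA2, were called higher with log2 fold changes of 4.37, 3.58, 8.81 and 2.34. The same 4 were called higher in the oxamate libraries. The ends of the stretch were set at EMB and ITGA2, which were themselves called, so the count is a description. All 4 averaged under 8 CPM, where 37.7% of all genes were called higher, beside 17.0% over all levels. ITGA2 reached only 0.446 CPM in the resistant cells. The fifth, PELO, which is annotated within ITGA1 and had means of 25.8 and 26.5 CPM, did not differ beyond the threshold.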
